A study of Mus musculus with 2 samples.

Results

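Integrin subunits, laminin chains and 4 further basement membrane genes were followed in a mouse mesenchymal stem cell line with and without Dicer. The members were chosen by symbol from the deposited table of gene expression: every alpha integrin (Itga) and beta integrin (Itgb) gene, every laminin alpha, beta and gamma chain gene (Lama, Lamb and Lamc), and Nid1, Nid2, Hspg2 and Agrn. This gave 41 of the 23227 genes in the table, namely 18 alpha integrins, 8 beta integrins, 11 laminin chains and 4 other basement membrane genes. The wild type (WT) line carried floxed, intact Dicer alleles (Dicer f/f) and the knockout (KO) line lacked Dicer (Dicer -/-). Both lines were immortalised and monoclonal, came from adult mouse mesenchymal stem cells that the labels also call fibroblasts, and were grown in Alpha-MEM with serum and antibiotics and lysed below confluence. Each genotype is therefore 1 clone, and differences between clones cannot be told apart from the effect of Dicer loss. PolyA RNA was sequenced from 1 labelled sample per genotype.

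Dicer cuts microRNA precursors into mature microRNAs, which repress messenger RNAs through short seed matches, mostly in 3' untranslated regions. Integrins are cell surface receptors made of 1 alpha and 1 beta chain that join the extracellular matrix to the actin cytoskeleton. Laminins are trimers of 1 alpha, 1 beta and 1 gamma chain that polymerise into the basement membrane, where nidogens and the heparan sulphate proteoglycans perlecan and agrin join them to collagen IV and to cells. Mesenchymal cells are known for fibronectin, collagen and vitronectin receptors, while several laminin chains and integrins are typical of epithelia or of blood cells.

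Each deposited mean was the average of 2 libraries per genotype, whose whole reads were recovered. Within a genotype they are named deeper and shallower by total, 15369250 and 14135422 reads in genes for WT and 15718369 and 14969532 for KO. Values are normalised reads (reads divided by the library's size factor), given as the authors' mean with the deeper and then the shallower library. Nothing in the labels says that these libraries were separate cultures, so p-values measure only the spread between them, which may be technical. The targeted gene, Dicer1, stood at 873 (804 and 943) in WT and 565 (573 and 557) in KO, a ratio of 0.647 with a limma adjusted p of 0.0952, and a value per gene does not show whether the deleted part was read. Mesenchymal markers were abundant in all 4 libraries (summed level 165536 to 194092 in WT and 94785 to 112531 in KO, 13 of 14 markers detected, Thy1 at 0). Markers of smooth muscle cells or myofibroblasts summed to 39786 and 68508 in WT against 854 and 898 in KO (6 of 6 detected), and the part of this difference in the results below was not tested.

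Because Dicer makes microRNAs, 5 seed families known from mesenchymal cells are shown here with the matches found in members that rose in KO. The mature microRNAs (RefSeq, GRCm38.p6) have their seed, bases 2 to 8, in capitals.
let-7a-5p: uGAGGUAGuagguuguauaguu
miR-29a-3p: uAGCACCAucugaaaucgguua
miR-17-5p: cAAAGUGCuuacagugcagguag
miR-16-5p: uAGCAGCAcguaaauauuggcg
miR-199a-3p: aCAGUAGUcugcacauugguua

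The longest annotated 3' untranslated region of each tested gene (GENCODE M21) was searched on the transcript strand for the 7 bases complementary to each seed. These motifs were CTACCTC for let-7, TGGTGCT for miR-29, GCACTTT for miR-17, TGCTGCT for miR-15/16 and ACTACTG for miR-199a-3p. The sites in the 2 risen members that carried a let-7 or miR-29 match, Itgb3 and Lamc1, are printed with the match in capitals.
Itgb3, let-7: ggtgcttgtgtgtatCTACCTCtt
Itgb3, miR-29: ctggaatgaggcttgTGGTGCTtg
Lamc1, miR-29: tattatctgacacacTGGTGCTat
Lamc1, miR-17: ccccatctagttcctGCACTTTgt
Lamc1, miR-15/16: agacccccacttctcTGCTGCTct

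The let-7 match of Itgb3 lay at bases 1287 to 1293 of a 3' untranslated region of 3331 bases, and its miR-29 match at bases 2946 to 2952. In Lamc1, whose region was 2551 bases long, the miR-29 match lay at bases 1398 to 1404. Of 27 tested members, 4 held a let-7 match (Itgad, Itgal, Itgb3 and Nid1) beside 10.7% of all 11332 tested genes with an annotated region, and 6 held a miR-29 match (Agrn, Itga5, Itga9, Itgb1, Itgb3 and Lamc1) beside 16.2%. For miR-15/16 it was 6 members (among them Itga1, Itga10, Itgav, Itgb1 and Lamc1) beside 25.4%, for miR-199a-3p 4 (among them Itga1, Itga3 and Nid2) beside 8.90%, and for miR-17 only Lamc1 beside 15.1%. The regions differed in length, and these shares are not matched on it. Lama5, Lamb1 and Itgb7, which also rose, had short regions of 174, 151 and 165 bases with no match to any of the 5 motifs, against a median of 1210.5 bases over all tested genes. None of the printed matches overlap each other. A match describes the letters only, a missing match says only that the letters are not in this window, and Itga9 and Nid1, which held 2 miR-29 and 2 let-7 matches, did not rise.

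Among the members, the transcripts that rose in KO included those for the chains of one laminin trimer, laminin alpha 5 beta 1 gamma 1, and for 2 beta integrins. Genes with an average of 20 or more normalised reads across the genotypes were tested, and a gene was said to rise or fall at an adjusted p below 0.05 in limma, fitted on log2(normalised reads + 1) of the 4 libraries over all 11710 tested genes. Of the 41 members, 27 were tested, and 4 of these (Itgad, Itgal, Lama1 and Lamb3) reached the minimum through 1 genotype only. By limma 6 of 27 rose (among them Lama5, Lamb1, Lamc1, Itgb3 and Itgb7), and 4.61% of all tested genes rose. None of the 27 fell, and 4.14% of all tested genes did; at an unadjusted p below 0.05, 12 members were higher (14.9% of all genes) and 4 lower (14.2%). In the authors' deposited table, at an adjusted p below 0.1, 8 members were higher (5.56% of all tested genes) and 1 was lower (5.34%): the same 6 with Itga3 and Lama1 on the high side, and Lama4 on the low side. In the same table at 0.05, the authors' deposited values put 8 higher (4.48%) and 0 lower (4.3%). A rule of size alone (ratio of at least 2 or at most 0.5 with a counting interval that excludes 1) gave 10 higher (8.92%) and 6 lower (8.56%). Both KO values exceeded both WT values for 15 of 27 members (30.4% of all tested genes) and were under both for 5 (28.8%). In these bulk samples, fewer cells making a transcript and less of it per cell cannot be told apart. The median log2 difference was 0.51 over the tested members and 0.00 over all tested genes. The 4 members that passed the minimum through 1 genotype had to differ, so these counts describe the members and support nothing further.

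**Figure D1:**
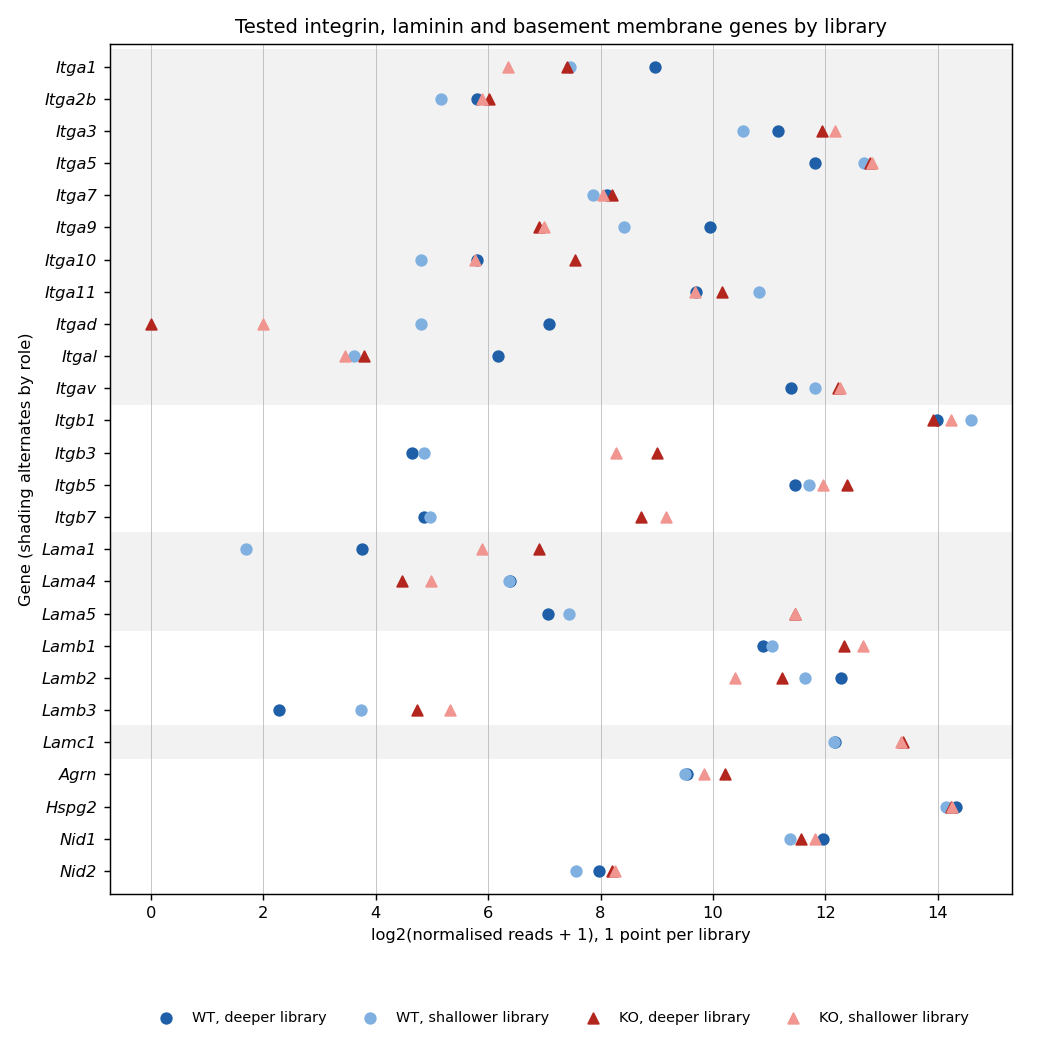
Expression of 26 of the 27 tested members in each of the 4 recovered libraries, on a log2(normalised reads + 1) axis, with WT libraries as circles and KO libraries as triangles. The KO libraries of Lama5 (2807 and 2827) lie far to the right of its WT libraries (133 and 172), while those of Hspg2 overlap.

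Laminin alpha chains carry the globular domains that bind integrins and dystroglycan, and give each trimer its receptor preference. Lama5, the alpha chain of most adult epithelial and vascular basement membranes, had 152 normalised reads in WT (133 and 172) and 2817 in KO (2807 and 2827). The KO libraries were nearly level and lay far above both WT libraries. Lama5 rose 18.5-fold, a log2 difference of 4.21 (95% interval 3.70 to 4.72), with adjusted p = 0.00827 in limma and 1.93e-22 in the authors' deposited table. Lama1, an alpha chain of early embryonic basement membranes, was at 7.39 in WT (12.5 and 2.24) and 88.7 in KO (119 and 58.7), with no overlap. Its ratio of 12.0 rested on 15 WT reads and passed in the authors' deposited table (adjusted p = 0.0198) but not in limma (adjusted p = 0.0675); it was 39.6 without the deeper WT library and 7.08 without the shallower one, and 7.95 without the deeper KO library. Lama4, the alpha chain of endothelial and mesenchymal basement membranes, was at 82.4 in WT (82.9 and 81.8) and 26.0 in KO (21.2 and 30.8). The KO values were under both WT values, a ratio of 0.316, and limma gave an adjusted p of 0.0654 where the authors' deposited table had 0.0796. The chains Lama2 of muscle and Lama3 of skin were not tested, and reached at most 8.28 and 29.4 in a single library.

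Beta and gamma chains complete the trimer. Lamb1, the widely expressed beta chain, had 2006 normalised reads in WT (1903 and 2110) and 5824 in KO (5174 and 6473). It rose 2.90-fold (adjusted p = 0.0192 in limma), 2.72-fold between the deeper libraries and 3.07-fold between the shallower ones. Lamb2, the beta chain of synaptic, renal and vascular laminins, stood on the other side, at 4069 in WT (4969 and 3168) and 1872 in KO (2394 and 1349). Its KO libraries lay below its WT libraries, a ratio of 0.460, but it did not pass (adjusted p = 0.128 in limma and 0.244 in the authors' deposited table). Lamb3, a chain of the laminin of epidermal hemidesmosomes, was at 8.09 in WT (3.86 and 12.3) and 32.3 in KO (25.8 and 38.8), a low level without overlap that did not pass (adjusted p = 0.142 in limma).

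Lamc1, the gamma chain shared by most laminins, had 4589 normalised reads in WT (4634 and 4544) and 10513 in KO (10616 and 10410). The libraries of each genotype were nearly level, and the ratio was 2.29 in both the deeper and the shallower pair. Lamc1 rose with adjusted p = 0.0255 in limma and 0.0132 in the authors' deposited table. Lamc3 had 0 reads in WT and 8 reads in KO and was not tested.

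Levels of different chains were compared per kilobase of annotated exon length (GENCODE M21, GRCm38; not the authors' build, mm9). The summed level of the 5 alpha chain genes was 26.9 and 30.3 normalised reads per kb in the deeper and the shallower WT library, and 266 and 261 in the KO libraries. In WT this sum was divided between Lama4 (51.0% and 44.6%) and Lama5 (43.4% and 49.7%), while in KO Lama5 made up 92.7% and 94.99% and Lama4 1.32% and 1.95%. The beta chains summed to 1209 and 926 per kb in WT and 1316 and 1355 in KO. Lamb2 made up 73.0% and 60.8% of the beta sum in WT and 32.3% and 17.7% in KO, and Lamb1 26.9% and 39.0% in WT and 67.3% and 81.8% in KO. The order of the beta chains was thus Lamb2 over Lamb1 in each WT library and Lamb1 over Lamb2 in each KO library. Lamc1 stood at 608 and 596 per kb in WT and 1393 and 1366 in KO. In each library the alpha sum was lower than the beta sum and than Lamc1 alone, and these levels and shares are descriptions with no test.

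**Figure D2:**
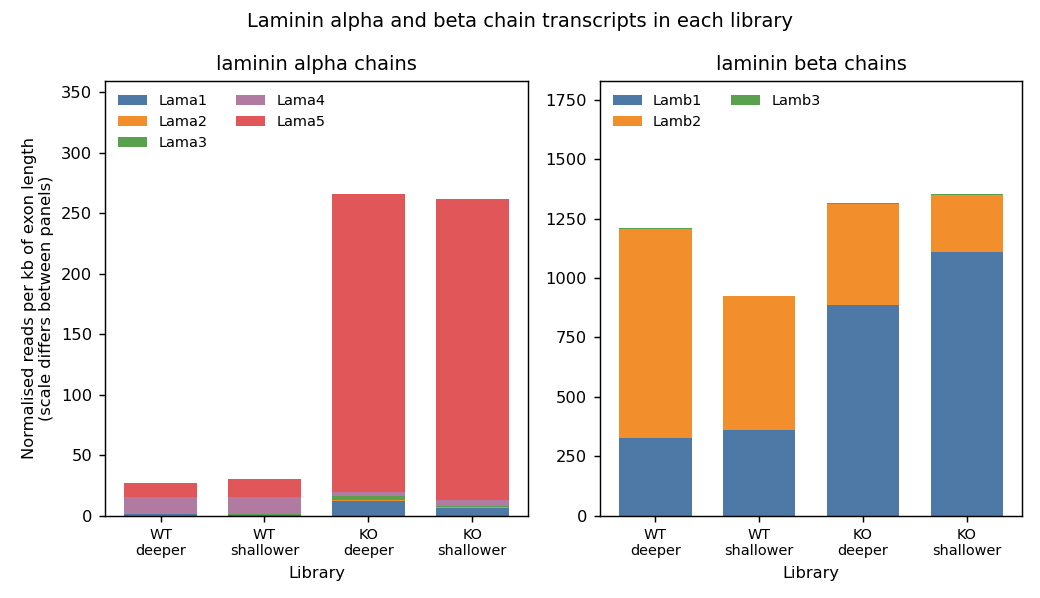
Stacked normalised reads per kb of exon length for the laminin alpha and beta chain genes in each recovered library; the vertical scale differs between panels and starts at 0. Lama5 fills most of the alpha bars in KO (92.7% and 94.99%), and the larger part of the beta bars passes from Lamb2 in WT to Lamb1 in KO.

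The other basement membrane genes showed smaller differences. Hspg2, which encodes perlecan, had the highest level per kb among them, and its normalised reads were 19277 in WT (20410 and 18144) and 19407 in KO (19334 and 19481). The genotypes overlapped, with a log2 difference of 0.01 and a 95% interval from -0.60 to 0.62. Nid1, encoding the nidogen that joins laminin to collagen IV, was at 3315 in WT (3985 and 2646) and 3324 in KO (3035 and 3612), and its interval was -0.63 to 0.69. Nid2, its homologue, was at 219 (250 and 188) in WT and 299 (295 and 304) in KO, and Agrn, encoding agrin, at 734 (746 and 722) in WT and 1052 (1183 and 920) in KO. The genotypes did not overlap for Nid2 and Agrn, with KO higher, but neither passed (limma adjusted p = 0.274 and 0.166). Rtraf, on the opposite strand, shares 8.96% of the exon length of Nid2, and reads of the 2 genes cannot be told apart if strand was not used. The intervals for Hspg2 and Nid1 do not reach the difference found for Lamc1, 1.20 on the log2 scale.

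The tested beta integrins divided into an abundant pair with small differences and a scarce pair that rose. Itgb1, the beta chain shared by most matrix receptors, had 20382 normalised reads in WT (16260 and 24504) and 17336 in KO (15345 and 19327). The genotypes overlapped and Itgb1 did not pass (adjusted p = 0.702 in limma). Itgb5, which pairs with alpha v in a vitronectin receptor, was at 3069 in WT (2810 and 3329) and 4676 in KO (5357 and 3995), without overlap and without passing (adjusted p = 0.159 in limma). Itgb3, the other vitronectin receptor beta chain, was at 26.1 in WT (24.1 and 28.0) and 410 in KO (513 and 307). The KO libraries lay far above the WT libraries, and Itgb3 rose 15.7-fold (log2 difference 3.88, interval 2.95 to 4.82), with adjusted p = 0.0137 in limma and 2.61e-05 in the authors' deposited table. Itgb7, a beta chain of lymphocyte homing receptors, was at 29.1 in WT (28.0 and 30.3) and 500 in KO (423 and 576). It rose 17.2-fold (log2 difference 4.04, interval 3.29 to 4.79), with adjusted p = 0.0117 in limma and 2.72e-14 in the authors' deposited table. Per kb, Itgb1 made up 83.4% and 86.5% of the beta chain sum in WT and 68.6% and 77.7% in KO. Itgb3 stood at 0.08% and 0.07% of that sum in WT and 1.51% and 0.82% in KO, and Itgb7 at 0.20% and 0.15% in WT and 2.69% and 3.29% in KO.

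The alpha partners of the risen beta chains differed in level. Itgav, the alpha chain that pairs with Itgb3 and Itgb5, was at 3128 in WT (2662 and 3594) and 4828 in KO (4770 and 4885), with no overlap and an adjusted p of 0.127 in limma. Itga2b, the platelet partner of Itgb3, was at 44.8 in WT (54.9 and 34.8) and 61.1 in KO (63.5 and 58.7) and did not pass (adjusted p = 0.473 in limma). The known partners of Itgb7 were scarce in both genotypes. Itga4 was at 2.72 in WT and 3.37 in KO, from 5 and 7 reads, and Itgae at 12.8 and 11.4, from 25 and 24 reads. Blood cell markers are given beside the rise of Itgb7, and their part in it was not tested. Of 9 markers in the table, 7 were detected, and the list includes the members Itgam and Itgal. The markers summed to 61.7 to 100.2 in WT and 56.7 to 58.9 in KO. Itgal alone was at 71.3 in the deeper WT library, where the sum was 100.2, and at 11.2 in the shallower one. The leukocyte marker Ptprc had means of 0.56 and 1.46, and Cd3e was at 0. Platelet markers summed to 54.9 to 77.1 in WT and 79.6 to 98.4 in KO, mostly Itga2b itself, with Gp9 at 0.

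Alpha integrins that bind fibronectin, collagen and laminin made up most of the alpha chain sum. Itga5, the fibronectin receptor chain, was at 5116 in WT (3609 and 6623) and 7201 in KO (7098 and 7304) and did not pass (adjusted p = 0.327 in limma). It had the highest level per kb of the alpha chains in each library, at 38.6% and 53.6% of the sum in WT and 47.1% and 47.3% in KO. Itga3, the main laminin receptor alpha chain detected here, was at 1889 in WT (2292 and 1485) and 4273 in KO (3935 and 4610). The KO values were above both WT values, a ratio of 2.26, and limma gave an adjusted p of 0.0592 where the authors' deposited table had 0.0208. Itga7, a laminin receptor chain of muscle, was at 253 (275 and 232) in WT and 279 (294 and 263) in KO, and Itga6, the remaining one, was at 12.7 in WT and 3.83 in KO and was not tested. Itgb4, the partner of Itga6 in hemidesmosomes, was at 7.79 in WT (14.5 and 1.12) and 29.8 in KO (36.8 and 22.9), just under the minimum, and was not tested.

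Collagen receptor chains varied between the libraries of a genotype. Itga11, the fibrillar collagen receptor of fibroblasts, was at 1320 in WT (825 and 1814) and 982 in KO (1148 and 816), and the genotypes overlapped (adjusted p = 0.652 in limma). Itga1, a collagen IV receptor, was at 337 in WT (500 and 174) and 124 in KO (167 and 80.6). Its KO libraries lay just below its WT libraries, a ratio of 0.368 that was 0.714 without the deeper WT library (adjusted p = 0.244 in limma). Itga10, a cartilage collagen receptor, was at 40.9 in WT (54.9 and 26.9) and 120 in KO (187 and 53.7), and overlapped; 34.5% of its annotated exon length was shared with another gene model on the same strand, Gm42957, so its reads are uncertain. Itga2, the remaining collagen receptor chain and the neighbour of Itga1, had 3 reads in WT and 16 in KO.

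Itga9, which binds tenascin and pairs with Itgb1, was at 664 in WT (985 and 342) and 123 in KO (120 and 126). Each KO value was under each WT value, a ratio of 0.185 that did not pass (adjusted p = 0.0713 in limma and 0.376 in the authors' deposited table) and was 0.360 without the deeper WT library and 0.125 without the shallower one. Itgad, a leukocyte integrin alpha chain, was at 80.9 in WT (135 and 26.9) and had 0 and 3 reads in the KO libraries. The KO over WT ratio came to 0.0184, counting interval 0.00344 to 0.0502 (exact, 95%, counting error only) and did not pass (adjusted p = 0.0653 in limma). It was 0.0555 without the deeper WT library, 0.0111 without the shallower one and 0.0369 when the deeper KO library was left out, and all KO reads came from the shallower KO library. Short stretches of its exons are shared with other gene models. Its neighbour among protein-coding genes (GRCm38.p6), Itgax, had 0 reads in all libraries. Itgam, the neighbour of Itgax, had 2 reads in WT with 0 in KO. Of the exon length of Itgam, 70.0% is shared with Gm49368 on the same strand, so its reads are uncertain. Itgal, a leukocyte chain, was at 41.3 in WT (71.3 and 11.2) and 11.4 in KO (12.9 and 9.95), and its ratio of 0.277 was 1.02 without the deeper WT library. Their common beta chain Itgb2 was at 5.69 in WT and 9.08 in KO. The remaining untested members Itga8, Itgb6 and Itgb8 reached at most 20.2 normalised reads in a library, where 3 reads equal 2.76 to 3.36.

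**Figure D3:**
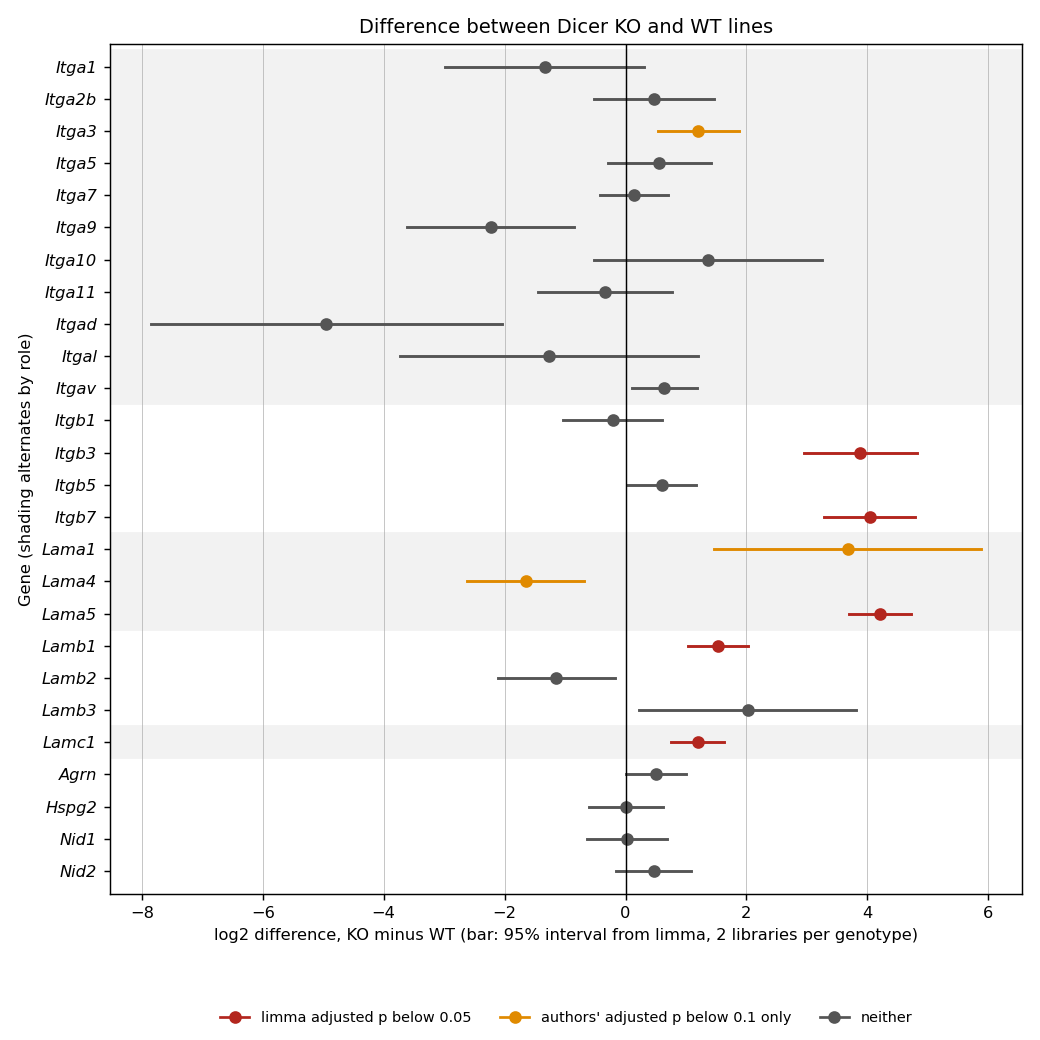
Log2 difference between KO and WT for 26 of the 27 tested members with the 95% interval from limma (2 libraries per genotype). The 5 members shown that rose in limma are red, the 3 that passed only in the authors' deposited table (Itga3, Lama1 and Lama4) are orange, and the rest are grey.

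**Figure D4:**
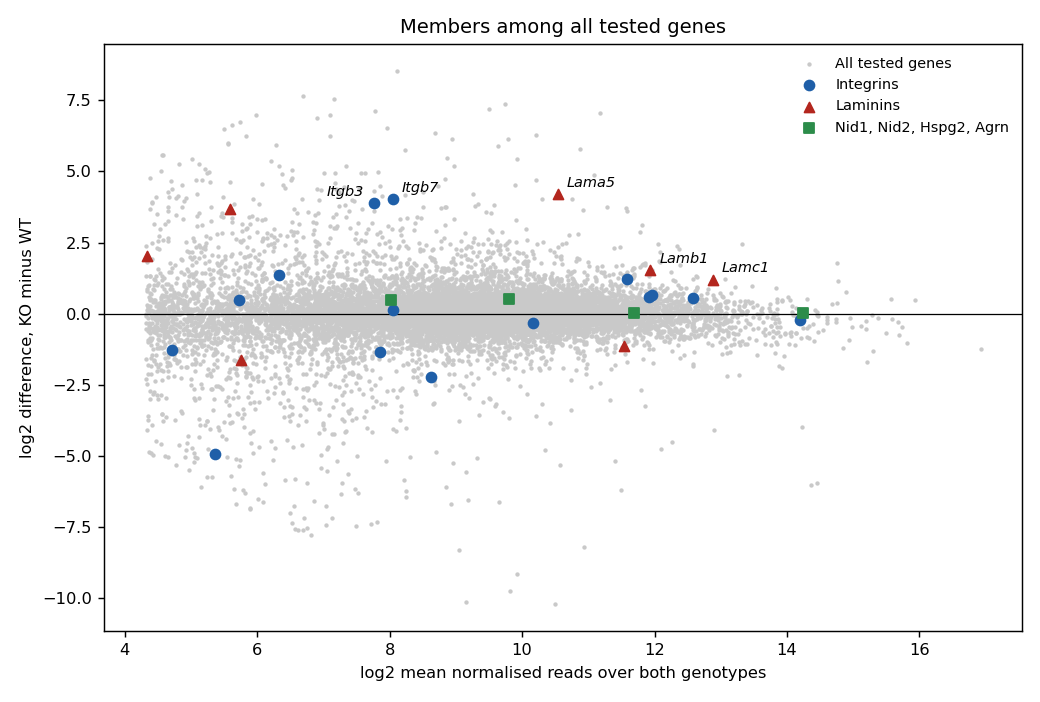
Log2 difference between KO and WT against the log2 mean normalised reads for all 11710 tested genes (grey), with integrins as blue circles, laminins as red triangles and the 4 other basement membrane genes as green squares. The 5 named genes passed in limma, and Lama5 at a log2 difference of 4.21 lies highest among the 26 members marked.

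The genes that work beside the members were taken from lists drawn up by function, but with earlier results of these data known. The list counts below therefore describe these genes and support nothing further. Of 38 tested genes of the machinery that joins integrins to actin, 3 rose, 4 fell and 31 did not pass in limma, beside 4.61% of all tested genes that rose and 4.14% that fell (median log2 difference -0.28). Among those that fell, the focal adhesion kinase homologue Ptk2b went from 532 to 39.1 (adjusted p = 0.0159 in limma), the talin gene Tln2 from 2482 to 668 (adjusted p = 0.0195), the paxillin homologue Tgfb1i1 (Hic-5) from 1126 to 304 (adjusted p = 0.0287), and the adaptor Rsu1 from 2141 to 1195 (adjusted p = 0.0425). Those that rose were the tensin gene Tns1, from 195 to 1471, the parvin gene Parvb, from 761 to 2034, and the paxillin gene Pxn, from 861 to 1693 (adjusted p = 0.0386, 0.0359 and 0.0296 in limma). The ratio of Tns1 was 7.53, and 4.73 without the deeper KO library. The major talin Tln1 stood at 13532 in WT and 7010 in KO (adjusted p = 0.0508 in limma). In the authors' deposited table, at an adjusted p below 0.1, Tln1 was lower (0.0831) and Rsu1 did not pass (0.179). That table put 3 genes of this list higher (5.56% of all tested genes) and 5 lower (5.34%).

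Integrin ligands outside the basement membrane went in both directions, with 5 of 29 tested genes higher, 5 lower and 19 neither in limma, beside the same 4.61% and 4.14% of all tested genes (median log2 difference -0.45). Edil3, a secreted ligand of alpha v integrins, rose from 2.65 (1.93 and 3.36, 5 reads in all) to 272 (290 and 255), a ratio of 103 (adjusted p = 0.0114 in limma). The collagen gene Col3a1 rose 5.58-fold, Tgfbi 3.73-fold and Vcam1, a ligand of alpha 4 integrins, 2.81-fold (adjusted p = 0.0169, 0.0312 and 0.0472 in limma). Tnc (tenascin C), a ligand of alpha 9 beta 1, fell from 44127 (52497 and 35757) to 754 (1063 and 444), a 58.6-fold difference (adjusted p = 0.0131 in limma). With 1 library left out, the fall of Tnc ranged from 41.5-fold (without the shallower KO library) to 99.4-fold (without the deeper one). The related Tnn fell 94.1-fold, Postn (periostin) 27.3-fold and the adhesion molecule gene Jam3 9.21-fold (adjusted p = 0.0117, 0.0382 and 0.0131 in limma). Tnn had 17.5 and 6.97 normalised reads in KO, and was 165-fold lower without the deeper KO library and 65.8-fold lower without the shallower one. Postn varied within both genotypes, at 3832 and 13143 in WT and 481 and 140 in KO, and its adjusted p in the authors' deposited table was 0.145. Its fall ranged from 12.3-fold to 60.5-fold with 1 library left out: leaving out WT gave 42.3-fold (deeper) or 12.3-fold (shallower), and leaving out KO gave 60.5-fold (deeper) or 17.6-fold (shallower). Fn1, the fibronectin gene, did not pass, at 51065 in WT and 74002 in KO (adjusted p = 0.557 in limma).

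Of 31 tested genes of other basement membrane components and matrix receptors, 5 rose, 3 fell and 23 did not pass in limma, again beside 4.61% and 4.14% of all tested genes (median log2 difference 0.05). Col7a1, the anchoring fibril collagen, rose 5.47-fold, the peroxidase gene Pxdn, whose product crosslinks collagen IV, 5.13-fold, Col18a1 3.44-fold and the collagen receptor gene Ddr2 2.47-fold (adjusted p = 0.0331, 0.0137, 0.0392 and 0.0484 in limma). The main collagen IV chains Col4a1 and Col4a2 did not pass, at 2224 and 1419 in WT and 1687 and 1068 in KO. Fras1, of the embryonic skin basement membrane, fell from 353 to 3.75, the syndecan gene Sdc3 from 9425 to 396 and the fibulin gene Fbln1 from 826 to 261 (adjusted p = 0.0157, 0.0114 and 0.0372 in limma). Fras1 was 94.1-fold lower, from 8 KO reads, and 54.3-fold without the deeper WT library and 177-fold without the deeper KO library. Epithelial markers, given beside the rise of Lama5, summed to 49.2 to 91.9 in WT and 36.8 to 66.7 in KO (7 of 8 detected, Epcam at 0). Endothelial markers summed to 14.6 to 22.2 in WT and 25.8 to 26.9 in KO (7 of 7 detected). The part of either cell type in the result was not tested.

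The calls rested on few libraries. Without the deeper or without the shallower KO library, limma called 0 genes in the whole table (2284 and 3050 at an unadjusted p below 0.05), so none of the 6 members passed, while their ratios moved by less than 1.5 times. Lama5, Itgb3 and Itgb7 still passed without either WT library, and Lamb1 and Lamc1 did not, with limma adjusted p from 0.05003 to 0.146.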

How the data were processed

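The authors deposited 1 table comparing WT and KO. TopHat 1.4.0, DESeq 1.10.1 and the mm9 build appear, with no role, in the submitters' processing notes. For the read counter, strand setting and annotation the entry is: not given in the sources used here. The table holds, per the file headers, the mean normalised signal per gene for conditions A and B, the ratio of B over A as a fold, its log2 value, and p-values with adjusted p-values, all made by the authors. That A is WT and B is KO was taken from the comparison's title, which lists WT first.

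For 100% of genes above 0 in either genotype, the deposited mean fitted 1 pair of whole reads only (relative tolerance 5e-14), and size factors recomputed from these reads matched. limma 3.58.1 (trend) was run on log2(normalised reads + 1) of the 4 libraries, with Benjamini-Hochberg adjustment over all genes with a mean of at least 20 normalised reads; its p-values use the spread between 2 libraries per genotype. The script was tested on simulated data with the same spread setting for all genes and libraries, so that test concerns the script and not these results. The authors' values were copied. Per-kb levels use merged GENCODE M21 exons. Symbols gave a 3' untranslated region for 11332 of 11710 tested genes (96.8%), 957 through older symbols. Members with a mean of at least 20 were named, except that 1 tested member is not reported here; from related lists, those past the threshold, up to 4 in each direction by ratio, with a few others for context chosen after their values were seen. The members, gene lists and the 5 seed families were chosen with earlier results of these data known. No coordinates are given, since the reference build differs from mm9; exon lengths, exon overlaps, neighbours and 3' untranslated regions come from GRCm38. Ratios of related genes without each library were added after seeing the data.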

Additional observations from a re-analysis of the deposited data

How the results depend on the processing

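Scaling by total reads or TMM factors, no minimum mean or a minimum of 100, and a pseudocount of 0.5 or 8 each left the same 6 members higher and 0 lower in limma. Leaving out 1 library gave 0 to 5 members higher and 0 to 2 lower (Itga9 and Itgad, limma adjusted p = 0.0119 and 0.0215 without the shallower WT library); Itga3 and Lama1 passed without the deeper WT library (limma adjusted p = 0.0395 and 0.0153). Over all 11710 tested genes, 433 were higher and 286 lower without the deeper WT library, 285 and 287 without the shallower one, and 0 without either KO library. The lone library of an arm was then assumed to vary like the other genotype's. The authors' deposited table put 8 on the higher and 1 on the lower side at 0.1, and 8 and 0 at 0.05. A rule of size alone (ratio of at least 2 or at most 0.5, counting interval excluding 1) gave 10 and 6 (8.92% and 8.56% of all tested genes). The labels carry no replicate numbers; with the libraries paired by rank of depth as a replicate block, a pairing read from the data, 12 were higher and 5 lower, beside 18.5% and 17.7% of all tested genes. The median log2 difference of the members was 0.51. It was 0.66 between the deeper libraries, 0.44 between the shallower ones, and 0.42 to 0.54 with 1 library left out. With 1 library left out, the log2 difference ranged over both signs for 5 members that never passed: Hspg2 (-0.0727 to 0.10), Itga11 (-0.91 to 0.23), Itgal (-2.55 to 0.0137), Itgb1 (-0.51 to 0.0829) and Nid1 (-0.27 to 0.32). The cause was not tested. Depth limits the 14 untested members, none above 36.8 normalised reads in a library.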
